A study of Mus musculus with 6 samples.

Results

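The genes described here encode the secreted enzymes that trim fibrillar procollagens, with the glycoproteins that speed up the trimming: Bmp1, Tll1 and Tll2 (C-propeptide proteases), Pcolce and Pcolce2 (C-proteinase enhancers) and Adamts2, Adamts3 and Adamts14 (N-propeptide proteases). They were chosen by name, with earlier results of these data known, and all 8 were found among the 56748 genes of the count tables. RNA came from the tibia of female mice aged 12 weeks, in 3 libraries of genotype Col1a1+/- and 3 of wild type, all with marrow flushed out and with poly-A selected RNA. The labels name no other allele, agent or treatment for either group, and they do not give the mouse strain, the nature of the Col1a1 allele or whether animals were pooled. Nor do they state that the 3 samples of a group are separate animals, so p-values measure the spread between samples, which may be technical.

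Fibrillar procollagens leave the cell as soluble trimers with a globular propeptide at each end. Removal of the C-propeptide, by BMP1 and the related tolloid-like proteins, lowers the solubility of the molecule so far that fibrils form, and removal of the N-propeptide, by ADAMTS2, ADAMTS3 and ADAMTS14, lets fibrils grow to their normal shape. PCOLCE and PCOLCE2 hold no protease; they bind the C-propeptide and raise the rate at which BMP1 cuts it. In people, loss-of-function variants of BMP1 cause a recessive form of osteogenesis imperfecta (brittle bone disease), and loss of ADAMTS2 causes the dermatosparactic type of Ehlers-Danlos syndrome, with fragile skin. Col1a1 encodes the alpha 1 chain of type I procollagen, the main substrate of these enzymes in bone.

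Library totals lay between 26.83 and 32.38 M reads. Of 18514 genes that passed a filter on low counts, 803 (4.34%) passed an adjusted p of 0.05 by edgeR, and 265 (1.43%) did so as higher in Col1a1+/-. The libraries also differed in cell-type transcripts. The 16 skeletal muscle markers took 1.79% to 3.63% of reads in Col1a1+/- and 5.67% to 7.15% in wild type, the 9 chondrocyte markers 0.332% to 0.536% and 0.147% to 0.216%, and the 8 osteoclast markers 0.731% to 0.923% and 0.491% to 0.601%. The 10 osteoblast markers took 1.08% to 1.22% in Col1a1+/- and 0.519% to 0.633% in wild type, 7 of them rose, and none was at 0. Osteocyte markers overlapped between genotypes (0.0810% to 0.134% and 0.0481% to 0.0892%). Fibroblast markers took 0.0278% to 0.0329% and 0.0235% to 0.0269%, tendon markers 0.0413% to 0.0698% and 0.0370% to 0.0559%, and edgeR called none of either list (unadjusted 1 higher and 1 lower, and 2 lower, the same counts that DESeq2 called). Wild-type replicate 1 had the highest neutrophil share, 0.561%, against at most 0.157% in the other libraries. The part of these shares in the results below was not tested beyond the settings given there. In bulk tissue, fewer cells of a type and less RNA per cell cannot be told apart.

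Bmp1, Pcolce and Pcolce2 rose in Col1a1+/- tibia, by 1.73-fold, 2.01-fold and 1.96-fold, and no gene of the 8 fell. These 3 of 8 compare with 1.43% of all tested genes called higher, though the 8 were chosen with earlier results of these data known. In Bmp1, Pcolce, Pcolce2, Adamts2 and Adamts3, 5 of the 8, every Col1a1+/- library lay above every wild-type library, which held for 14.0% of all tested genes. The median log2 fold change of the 8 was 0.63 (Col1a1+/- over wild type), beside -0.01 for all tested genes. For the lower direction the count was 0 by edgeR, with 0 at an unadjusted p under 0.05, and DESeq2 and limma-voom also called 0. At an unadjusted p under 0.05, 1 of the 8 was lower by DESeq2 and by edgeR without the filter on low counts. The same count held by edgeR with libraries scaled on osteocyte or osteoblast markers, and without Col1a1+/- replicate 3 or wild-type replicate 1. With 1 library left out the log2 fold changes stayed between 0.70 and 0.89 for Bmp1, 0.86 and 1.18 for Pcolce, and 0.91 and 1.04 for Pcolce2, while the number of genes that edgeR called varied. It called 0 of the 8 without Col1a1+/- replicate 1, wild-type replicate 2 or wild-type replicate 3, in fits that called 0, 1 and 0 of all genes higher (5, 6 and 5 of the 8 were higher at an unadjusted p under 0.05). It called 1 of the 8 when Col1a1+/- replicate 3 was left out (32 of all genes), 3 when Col1a1+/- replicate 2 was (168) and 4 when wild-type replicate 1 was (594). With the muscle score as a covariate the log2 fold changes were 0.80 for Bmp1, 1.22 for Pcolce, 1.12 for Pcolce2 and 0.74 for Adamts2, and edgeR called 0 of all genes (1179 at an unadjusted p under 0.05, with 4 of the 8 among them as higher). Scaling the libraries on osteocyte or osteoblast markers moved the median of all genes to -0.67 and -0.81, and the median of the 8 to 0.01 and -0.14. On those scales 2 and 20 of all genes were called higher, none of the 8 among them, and Tll1, Adamts2 and Adamts14 on both scales and Adamts3 on the osteoblast scale lay below 0 but above the median of all genes.

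**Figure D1:**
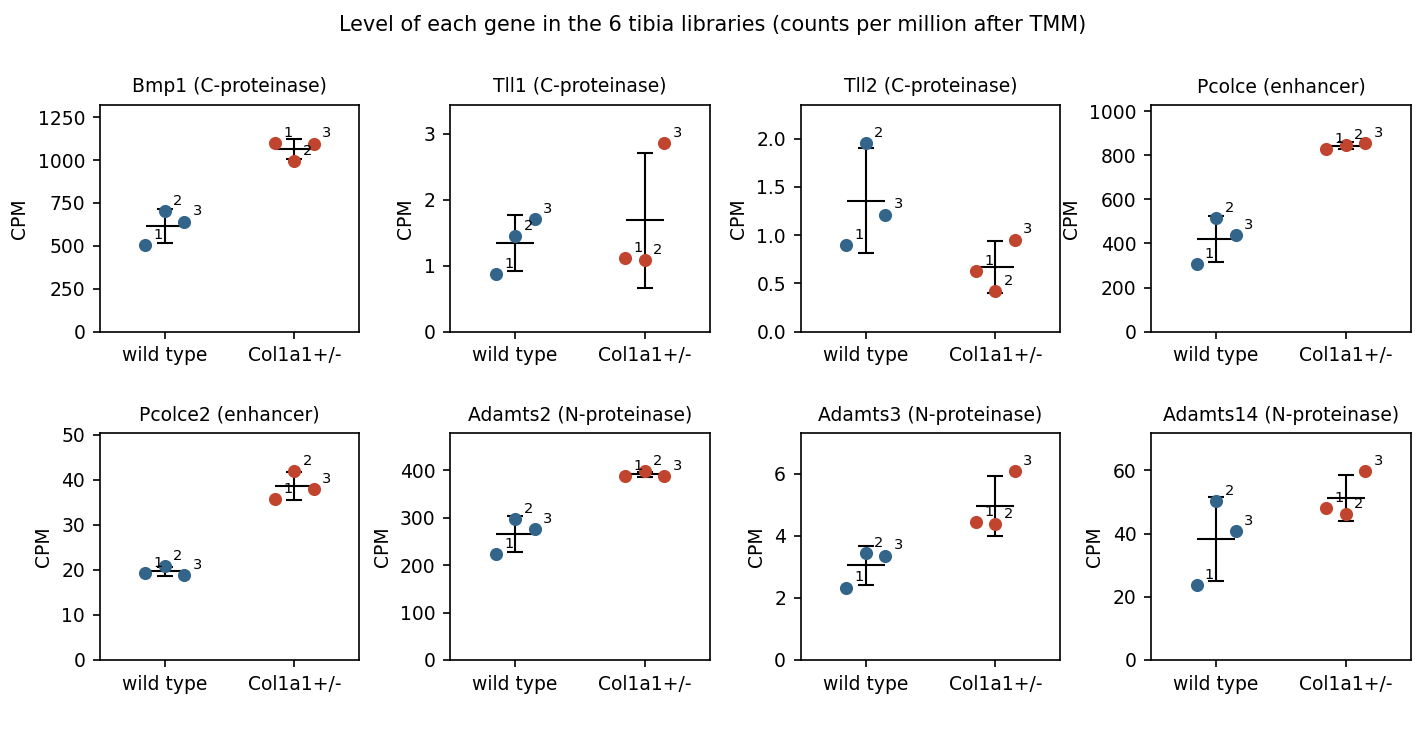
Level of each gene in CPM (read counts relative to the library's total, after scaling by TMM) in wild-type and Col1a1+/- tibia. Points are libraries with their replicate number, and bars give the mean and SD of 3 libraries; the Col1a1+/- points of Bmp1, Pcolce, Pcolce2, Adamts2 and Adamts3 all lie above the wild-type points, whereas Tll1, Tll2 and Adamts14 overlap.

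Bmp1 encodes the astacin-family metalloproteinase that does most of the C-propeptide cleavage, and its shorter and longer splice forms (BMP1 and mammalian tolloid) are not told apart by gene counts. The gene (ENSMUSG00000022098) lies on chromosome 14, 70711998 to 70757674 on the minus strand of GRCm39, and its exons cover 8870 bp. It stood at 1101, 995 and 1096 CPM in Col1a1+/- replicates 1, 2 and 3 and at 504, 700.3 and 642 CPM in the wild-type replicates. All 3 Col1a1+/- libraries were thus high, the groups did not overlap, and wild-type replicate 1 was the lowest of the 6. The means of 1064 ± 59.7 and 615 ± 101 CPM (SD, n = 3 each) gave a log2 fold change of 0.79 (SE 0.16, edgeR adjusted p = 0.0386; exact permutation p = 0.1, the smallest that 3 against 3 allows). The lowest Col1a1+/- library was 1.42 times the highest wild-type library.

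The tolloid-like genes Tll1 and Tll2 encode proteases of the same family and domain plan, and their transcripts were scarce in these bones. Tll1 (ENSMUSG00000053626; chromosome 8, 64467965 to 64659305, minus strand) had 37, 31 and 81 reads in Col1a1+/- and 28, 40 and 49 in wild type, or 1.11, 1.08 and 2.86 CPM and 0.868, 1.45 and 1.70 CPM. Only Col1a1+/- replicate 3 stood above the rest, and the groups overlapped (log2 fold change 0.33, 95% interval -0.72 to 1.38, adjusted p = 0.728). Without that library the log2 fold change was -0.26. Tll2 (ENSMUSG00000025013; chromosome 19, 41071192 to 41195274, minus strand) had 21, 12 and 27 reads in Col1a1+/- and 29, 54 and 35 in wild type, or 0.629, 0.419 and 0.953 CPM and 0.899, 1.96 and 1.21 CPM. It was the single gene of the 8 with a negative log2 fold change (-1.02, 95% interval -2.04 to 0.01, adjusted p = 0.222), and the highest Col1a1+/- library passed the lowest wild-type library. DESeq2 and limma-voom gave Tll2 adjusted p-values of 0.184 and 0.242. With libraries scaled on osteoblast markers edgeR called Tll2 lower (-1.76, adjusted p = 0.00565), along with 11899 of the 18514 genes. At 12 to 81 reads per library, with each mate of a read pair counted, both intervals are wide, and that of Tll1 holds the 0.79 of Bmp1 as well as 0.

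Of the 3 genes that rose, Pcolce had the largest fold change and Pcolce2 the smallest p. Pcolce encodes the main procollagen C-proteinase enhancer of bone and tendon. Its gene (ENSMUSG00000029718) lies on chromosome 5, 137603365 to 137612046, minus strand, with 3823 bp of exon, of which 112 bp overlap exons of Fbxo24 on the same strand and 112 bp overlap Gm36266 on the other, and reads in such overlaps were not counted. Pcolce stood at 827, 847 and 858 CPM in Col1a1+/- and at 307, 514 and 437 CPM in wild type. The Col1a1+/- libraries lay close together (15.4 CPM of SD on a mean of 844), and the wild-type libraries spread over 104 CPM of SD on a mean of 419. The log2 fold change was 1.01 (SE 0.19, adjusted p = 0.0321; exact permutation p = 0.1), and the lowest Col1a1+/- library was 1.61 times the highest wild-type library.

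Pcolce2 encodes a second enhancer with the same layout of CUB and netrin-like domains. The gene (ENSMUSG00000015354; chromosome 9, 95519654 to 95580149, plus strand) had 35.8, 41.9 and 37.9 CPM in Col1a1+/- and 19.2, 20.9 and 18.8 CPM in wild type. The wild-type values were tight, the groups lay well apart, and the log2 fold change was 0.97 (SE 0.11, adjusted p = 0.0192). By p-value Pcolce2 ranked 10 of the 18514 genes, ahead of Pcolce at 290 and Bmp1 at 457. Wild-type replicate 1, the lowest library in CPM for Bmp1, Pcolce and each N-proteinase gene, was not the lowest for Pcolce2.

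The N-proteinase genes were higher in every Col1a1+/- library for Adamts2 and Adamts3. None of the 3 N-proteinase genes passed edgeR with the filter on low counts, TMM scaling and all libraries. Adamts2 passed in other fits, given below, some of them also with TMM scaling. On the marker-gene scales all 3 stayed above the median of all genes, with signs as given above. Adamts2 (ENSMUSG00000036545; chromosome 11, 50492911 to 50698400, plus strand), the chief N-propeptidase of types I, II and III procollagen, stood at 388, 398 and 388 CPM in Col1a1+/- and at 222, 297 and 276 CPM in wild type. The groups did not overlap, and the log2 fold change of 0.56 (SE 0.14, 95% interval 0.25 to 0.87) had an adjusted p of 0.0537. That value lay at the threshold: DESeq2 gave 0.0016, limma-voom 0.0453, RLE size factors 0.0477, library totals 0.0175 and the fit without a filter on low counts 0.00626. Without wild-type replicate 1 it was 0.0245, and over all alternatives it ranged from 0.0016 to 0.934.

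Adamts3 (ENSMUSG00000043635; chromosome 5, 89824946 to 90031193, minus strand), which also cleaves the N-propeptide of type II procollagen and the lymphangiogenic factor VEGF-C, was at 4.44, 4.37 and 6.07 CPM in Col1a1+/- and 2.32, 3.44 and 3.36 CPM in wild type. The groups did not overlap (log2 fold change 0.71, 95% interval 0.14 to 1.27, adjusted p = 0.135). Adamts14 (ENSMUSG00000059901; chromosome 10, 61032891 to 61109217, minus strand), the third N-propeptidase, was at 48.1, 46.2 and 59.7 CPM in Col1a1+/- and 23.8, 50.1 and 40.8 CPM in wild type. Wild-type replicate 2 lay above 2 of the Col1a1+/- libraries, so the groups overlapped in CPM (log2 fold change 0.43, 95% interval -0.18 to 1.03, adjusted p = 0.381).

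Promoter sequences are printed for both enhancers and for Adamts2, because Pcolce and Adamts2 had nearly the same profile over the libraries and Pcolce2 had the smallest p, while their starts differ in base composition. RefSeq on GRCm38.p6 gave a promoter for 7 of the 8 genes, all but Bmp1. The 250 bases before the transcription start are given from the far end to the start, on the gene's own strand, with capitals marking each GC box (GGGCGG on either strand, a binding motif of SP-family factors). They lie at chr5:137611405-137611654 (Pcolce, minus strand), chr9:95637378-95637627 (Pcolce2, plus strand) and chr11:50601835-50602084 (Adamts2, plus strand).
Pcolce: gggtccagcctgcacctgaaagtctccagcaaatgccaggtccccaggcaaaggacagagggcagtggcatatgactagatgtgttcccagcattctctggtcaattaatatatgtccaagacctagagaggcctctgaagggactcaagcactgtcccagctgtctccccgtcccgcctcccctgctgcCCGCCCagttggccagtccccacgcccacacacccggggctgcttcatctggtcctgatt
Pcolce2: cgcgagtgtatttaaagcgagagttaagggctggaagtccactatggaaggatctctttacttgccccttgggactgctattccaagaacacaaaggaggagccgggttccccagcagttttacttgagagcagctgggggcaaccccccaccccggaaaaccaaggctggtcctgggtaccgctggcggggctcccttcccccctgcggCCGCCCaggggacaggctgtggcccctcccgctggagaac
Adamts2: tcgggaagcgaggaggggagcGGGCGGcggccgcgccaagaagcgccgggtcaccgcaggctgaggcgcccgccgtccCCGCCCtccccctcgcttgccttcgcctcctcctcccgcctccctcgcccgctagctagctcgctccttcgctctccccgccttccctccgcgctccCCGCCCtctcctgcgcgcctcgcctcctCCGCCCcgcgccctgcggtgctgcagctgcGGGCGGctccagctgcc
The Pcolce and Pcolce2 windows held 1 GC box each and the Adamts2 window 5. Of all 32851 promoter windows of this length, 32.7% held at least 1. The G and C content was 58.8% in Pcolce, 61.2% in Pcolce2 and 78.0% in Adamts2, against a median of 52.4% over all windows, and the ratio of observed to expected CpG was 0.24, 0.43 and 0.96. Adamts3 and Adamts14 were like Adamts2 in these measures (78.0% and 76.4%, with CpG ratios of 0.92 and 0.98), and Adamts14 held 6 GC boxes, a pair of which overlap. A TATA box (TATAAA, 12.4% of all windows) was in none of the 7, and the RUNX core (TGTGGT on either strand, 14.05% of all windows) was in Tll2 alone. An AP-1 site (TGANTCA, 6.75% of windows) was in none, and the Pcolce window held 6 E-boxes (CANNTG, present in 66.2% of windows). A match or its lack describes these letters only.

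Levels of different genes were compared per length, as TPM (reads per exon length as a share of the sum over all genes, without TMM scaling). In wild type Pcolce was highest at 303 ± 42.7 TPM, followed by Bmp1 at 193 ± 12.8, Adamts2 at 79.2 ± 4.77, Adamts14 at 20.1 ± 4.93 and Pcolce2 at 12.0 ± 1.91 TPM (SD, n = 3 each). Adamts3 at 1.55 ± 0.108, Tll2 at 0.788 ± 0.255 and Tll1 at 0.471 ± 0.0866 TPM were the lowest. Each neighbour in this order was apart from the next in all wild-type libraries. In Col1a1+/- the order of the first 6 was kept, at 732.5 ± 64.1 TPM for Pcolce, 399 ± 48.5 for Bmp1, 139 ± 9.01 for Adamts2, 32.98 ± 7.30 for Adamts14, 27.5 ± 2.12 for Pcolce2 and 3.06 ± 0.835 for Adamts3. There Adamts14 and Pcolce2 overlapped, as did Tll1 (0.741 ± 0.505 TPM) and Tll2 (0.477 ± 0.228 TPM), which also changed places. Between genotypes Adamts14 did not overlap in TPM (27.5 to 41.3 in Col1a1+/-, 15.4 to 25.3 in wild type), unlike in CPM after TMM.

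In each role 1 gene held most of the summed TPM, a measure of transcripts and not of protein or activity. Bmp1 made up 99.5% to 99.8% of the summed C-proteinase TPM in Col1a1+/- and 99.2% to 99.5% in wild type. Pcolce held 96.1% to 96.6% of the enhancer sum in Col1a1+/- and 95.1% to 96.8% in wild type. The N-proteinase sum was shared more, with Adamts2 at 76.7% to 81.5% in Col1a1+/- and 75.6% to 82.6% in wild type, Adamts14 at 16.98% to 21.2% and 15.9% to 22.9%, and Adamts3 at most 2.07% of it. These shares of the enhancer and N-proteinase sums overlapped between genotypes, and the Bmp1 share did not. Together the 8 genes took 0.234% to 0.258% of all reads in Col1a1+/- and 0.119% to 0.147% in wild type.

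Scaling of libraries cancels in a ratio of counts of 2 genes within 1 library, and 17 such ratios were compared by exact two-sided permutation tests. In such exact tests 3 against 3 cannot go below p = 0.1, and after Benjamini-Hochberg adjustment over the 17 the smallest value is 0.17, so none passes 0.05 and the ratios are described by whether the genotypes overlap. Relative to Col1a1 counts, Bmp1 was at 18.01, 18.8 and 18.4 reads per 1000 Col1a1 reads in Col1a1+/- and at 13.7, 11.4 and 11.7 in wild type, 1.504 times the wild-type ratio without overlap. Pcolce was at 13.5, 16.0 and 14.4 per 1000 Col1a1 reads against 8.35, 8.37 and 7.98, which is 1.77 times the wild-type ratio. Pcolce2 (1.69 times) and Adamts2 (1.28 times) also lay above wild type in every library, and Adamts14 (1.205 times) overlapped. Col1a1, the gene that the genotype names, averaged 57876 ± 4395 CPM with that genotype, against 50985 ± 12705 CPM for wild type (log2 fold change 0.18, adjusted p = 0.78).

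Col1a2, which encodes the partner chain of the same trimer, averaged 71246 ± 2666 CPM in Col1a1+/- libraries, all of them above wild type at 40038 ± 10928 CPM (log2 fold change 0.83, adjusted p = 0.159). Against Col1a2, Bmp1 and Pcolce2 overlapped between genotypes. Pcolce was slightly higher, and Adamts2 and Adamts14 lower, in every Col1a1+/- library. Adamts3, the remaining N-proteinase gene, was not set against Col1a1 or Col1a2, nor were Tll1 and Tll2. Bmp1 was at 15.1, 14.6 and 15.1 reads per 1000 Col1a2 reads in Col1a1+/- and at 18.1, 14.3 and 14.9 in wild type. The groups overlapped, and the ratio was 0.954 times that of wild type (exact permutation p = 0.9), though without wild-type replicate 1 its log2 difference turned from -0.069 to 0.035. Pcolce was at 11.3, 12.4 and 11.8 against 11.02, 10.5 and 10.1 per 1000 Col1a2 reads (1.13 times, no overlap), and Pcolce2 overlapped (1.07 times). Adamts2 was at 5.31, 5.83 and 5.35 per 1000 Col1a2 reads against 7.97, 6.05 and 6.40 (0.813 times). Adamts14 was at 0.657, 0.677 and 0.824 against 0.852, 1.02 and 0.947 (0.764 times).

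Between the genes themselves, Pcolce stood higher against Bmp1 in Col1a1+/- and Adamts2 lower. Pcolce counts were 0.751, 0.851 and 0.783 of Bmp1 counts in Col1a1+/- and 0.610, 0.733 and 0.681 in wild type, 1.18 times the wild-type ratio, with the lowest Col1a1+/- value just above the highest wild-type value. Adamts2 counts were 0.353, 0.3998 and 0.354 of Bmp1 counts in Col1a1+/- and 0.441, 0.424 and 0.430 in wild type, 0.853 times the wild-type ratio without overlap. Tll2 was at 0.571, 0.421 and 0.870 reads per 1000 Bmp1 reads in Col1a1+/- and 1.78, 2.79 and 1.89 in wild type. That is 0.281 times the wild-type ratio, from few Tll2 reads. The ratios of Tll1 to Bmp1, Pcolce2 to Pcolce, Adamts3 to Adamts2 and Adamts14 to Adamts2 overlapped between genotypes. Of the 17 ratios, 10 had no overlap, and a ratio without overlap cannot change sign when any single library is left out. Complete separation of 3 against 3 has an exact two-sided permutation p of 0.1. The 17 ratios share genes and are not independent, and no share over other gene pairs was computed.

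**Figure D2:**
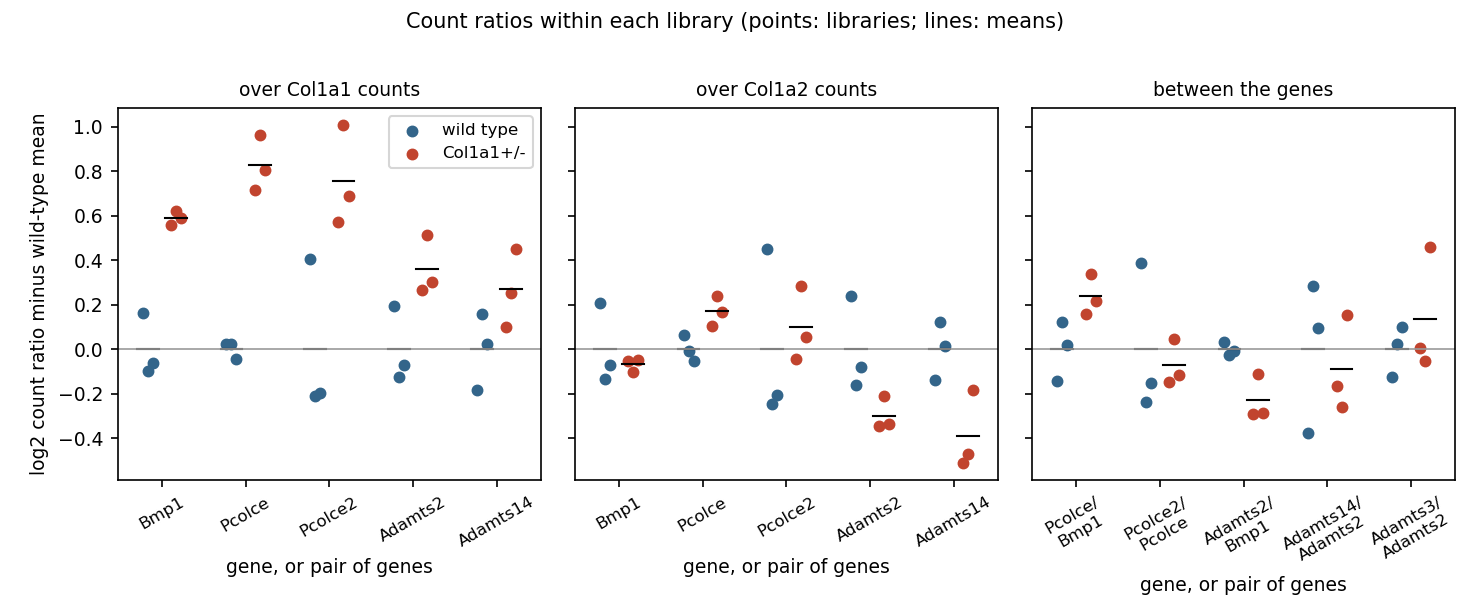
Log2 ratio of read counts within each library, minus the wild-type mean of that ratio, over Col1a1 (left), over Col1a2 (middle) and between pairs of the genes (right). Points are libraries and lines are means of 3; over Col1a1 Bmp1 is at 1.504 times and Pcolce at 1.77 times the wild-type ratio, whereas over Col1a2 Bmp1 is at 0.954 times and Adamts2 at 0.813 times.

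Procollagens and other substrates of these enzymes were followed as lists, chosen with earlier results of these data known. Beside the counts below, edgeR called 1.43% of all tested genes higher. Of 11 fibrillar procollagen genes 4 rose and none fell by edgeR, with a median log2 fold change of 0.80 with TMM scaling, 0.19 on the osteocyte scale and 0.05 on the osteoblast scale. The risen genes were Col27a1 (log2 fold change 0.64, adjusted p = 0.0286), the type V collagen genes Col5a1 (0.82, adjusted p = 0.036) and Col5a2 (0.93, adjusted p = 0.039), and the cartilage collagen gene Col2a1 (1.21, adjusted p = 0.046). Col2a1 is also a chondrocyte marker, and chondrocyte markers took more reads in the same libraries; their part in this count was not tested. Of 13 tested genes among 14 other substrates of the BMP1 family, 2 rose and none fell (median 0.38). Lox, the lysyl oxidase that crosslinks collagen and whose proenzyme BMP1 activates, rose from 472 ± 61.1 to 821 ± 32.0 CPM (adjusted p = 0.0286), and the proteoglycan gene Bgn rose with a log2 fold change of 0.85 (adjusted p = 0.0423). Below 0 stood, with the smallest p, the growth factor genes Gdf11 (-0.24, adjusted p = 0.286) and Mstn (-0.68, adjusted p = 0.287). Mstn is known as a muscle gene, and the muscle markers took fewer reads in Col1a1+/-; their part was not tested. On the osteocyte scale the median of this list was -0.27, above the -0.67 of all genes, with 2 of its genes called lower, as were 1461 of all genes. Dspp had at most 2 reads in any library and was not tested.

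Proprotein convertases cut the prodomain from BMP1 and from the ADAMTS enzymes. Of 4 such genes, Pcsk6 rose to 308 ± 44.2 CPM from a wild-type level of 154 ± 25.2 CPM (adjusted p = 0.0239 for a log2 fold change of 1.00). Pcsk5 stood at 0.75 (adjusted p = 0.0559), and Furin and Pcsk7 also missed the threshold. Of 4 genes for matrix proteins that bind BMP1 or help it reach its substrates, 2 rose, beside 1.43% of all tested genes. Fn1, which encodes fibronectin, had a log2 fold change of 1.10 (adjusted p = 0.0232) and Efemp2, which encodes fibulin-4, of 0.80 (adjusted p = 0.039), while Postn and Sfrp2 did not pass. No gene of these 5 lists was called higher with libraries scaled on osteocyte genes, with the muscle covariate or the replicate block, or when replicate 1 or 3 of Col1a1+/- or replicate 2 or 3 of wild type was left out. Those fits called 2, 0, 37, 0, 32, 1 and 0 of all genes higher. On the osteoblast scale none was called higher, and 1 fibrillar procollagen, 5 other substrates, 2 convertases and 1 matrix cofactor were called lower. That fit called 20 of all genes higher and 11899 lower. Without Col1a1+/- replicate 2, 1 other substrate was called lower, as were 762 of all genes. The median of the fibrillar procollagens was 0.94 with the muscle covariate, 0.83 with the block and 0.82, 0.77, 0.91 and 0.86 with those libraries left out. The inhibitor genes Timp3 (log2 fold change 0.35, adjusted p = 0.155) and A2m (0.54, adjusted p = 0.314) did not pass, with 1 of the 2 at an unadjusted p under 0.05 by edgeR and 0 called by DESeq2. Both genes of the meprins, proteases that can also remove procollagen propeptides, were near 0, with at most 2 reads per library.

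**Figure D3:**
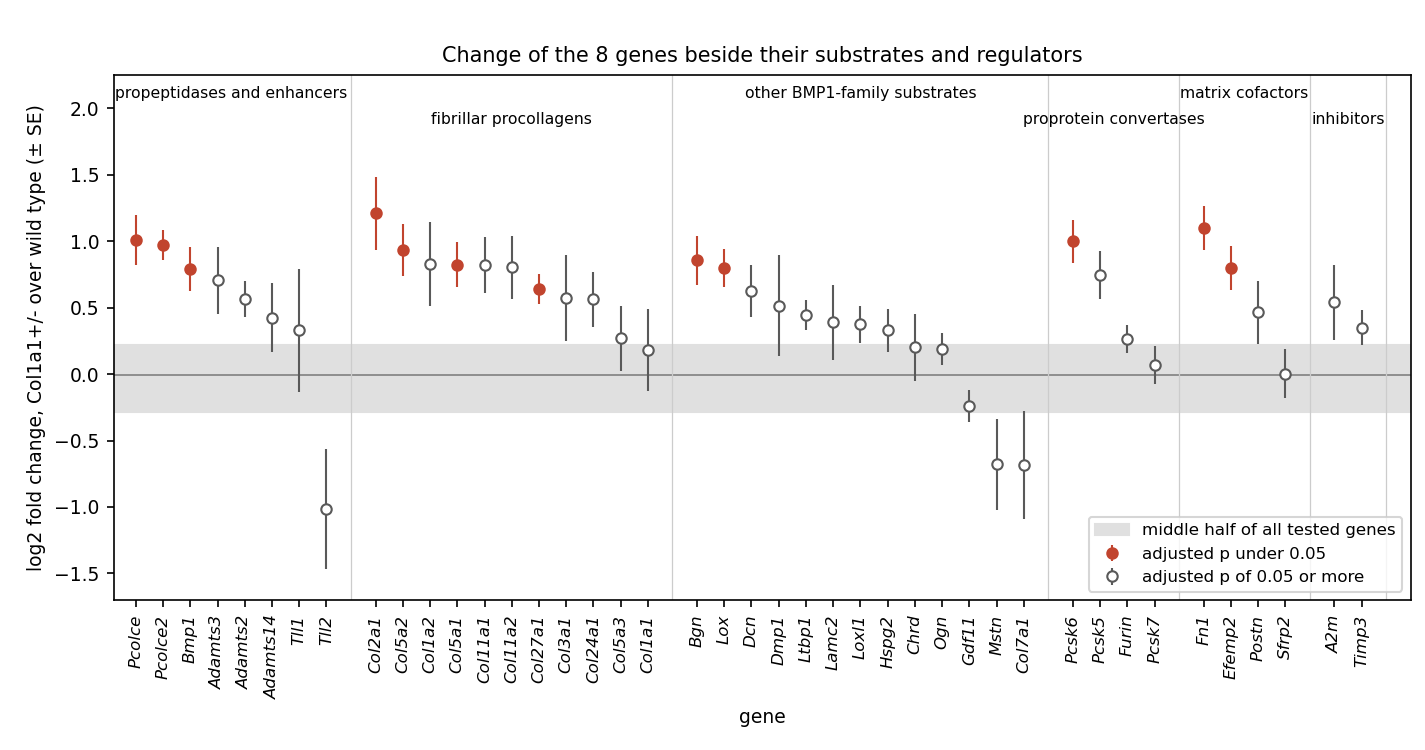
Log2 fold change (Col1a1+/- over wild type, points, with SE as bars) of the 8 genes and of their substrates, activating convertases, matrix cofactors and inhibitors, with the interquartile range of all tested genes (-0.29 to 0.22) as a grey band. Filled points passed an adjusted p of 0.05 by edgeR with TMM scaling, and none of these was called higher with libraries scaled on osteocyte genes. Pcolce, Pcolce2 and Bmp1 lie above the band. So do Adamts2, Adamts3, Adamts14 and Tll1, which were not called, and most procollagen genes. Tll2 stands below the band, as do Mstn and Col7a1.

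Over the 6 libraries Pcolce and Adamts2 followed each other most closely of all pairs among the 8 (Pearson r of log2 CPM 0.999), and Bmp1 had r = 0.991 with Pcolce and 0.986 with Adamts2. After the mean of each genotype was subtracted, the 6 pairs among Bmp1, Pcolce, Adamts2 and Adamts14 still had r between 0.913 and 0.992. Pcolce2 differed from them within genotypes, with r of 0.0505 to 0.384 to the same 4 genes. High values within genotypes were not limited to those 4. They were 0.937 for Tll1 with Adamts3, 0.917 for Adamts3 with Adamts14 and 0.853 for Tll2 with Adamts3. No share over all genes was computed for r within genotypes. All these values describe 6 libraries that share their scaling. In CPM, wild-type replicate 1 was the lowest library for Bmp1, Pcolce, Adamts2 and Adamts14. Among 10163 genes of at least 10 CPM, those most like Bmp1 in profile were Slc22a17, Ccdc194 and Fkbp10 (r = 0.998 to 0.999), those most like Pcolce were Vasn, Fkbp9 and Snai1 (0.997 to 0.998), and those most like Pcolce2 were Fn1, Fuca1 and Fxyd5 (0.992 to 0.995). For Adamts2 they were Tceal9, Mmp23 and Gpx7, for Adamts3 Slc38a10, Tmem39a and S1pr2 and for Adamts14 Plekhf1, Tmem251 and Atp6v0b, all at r of at least 0.995. Tll1 was most like Pex5, Hdgfl2 and Mmp11 and Tll2 most like Trappc13, Vps50 and Pik3c3 (0.975 to 0.985). High values were common, with 795 genes above r = 0.9 for Bmp1, 756 for Pcolce and 424 for Pcolce2.

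**Figure D4:**
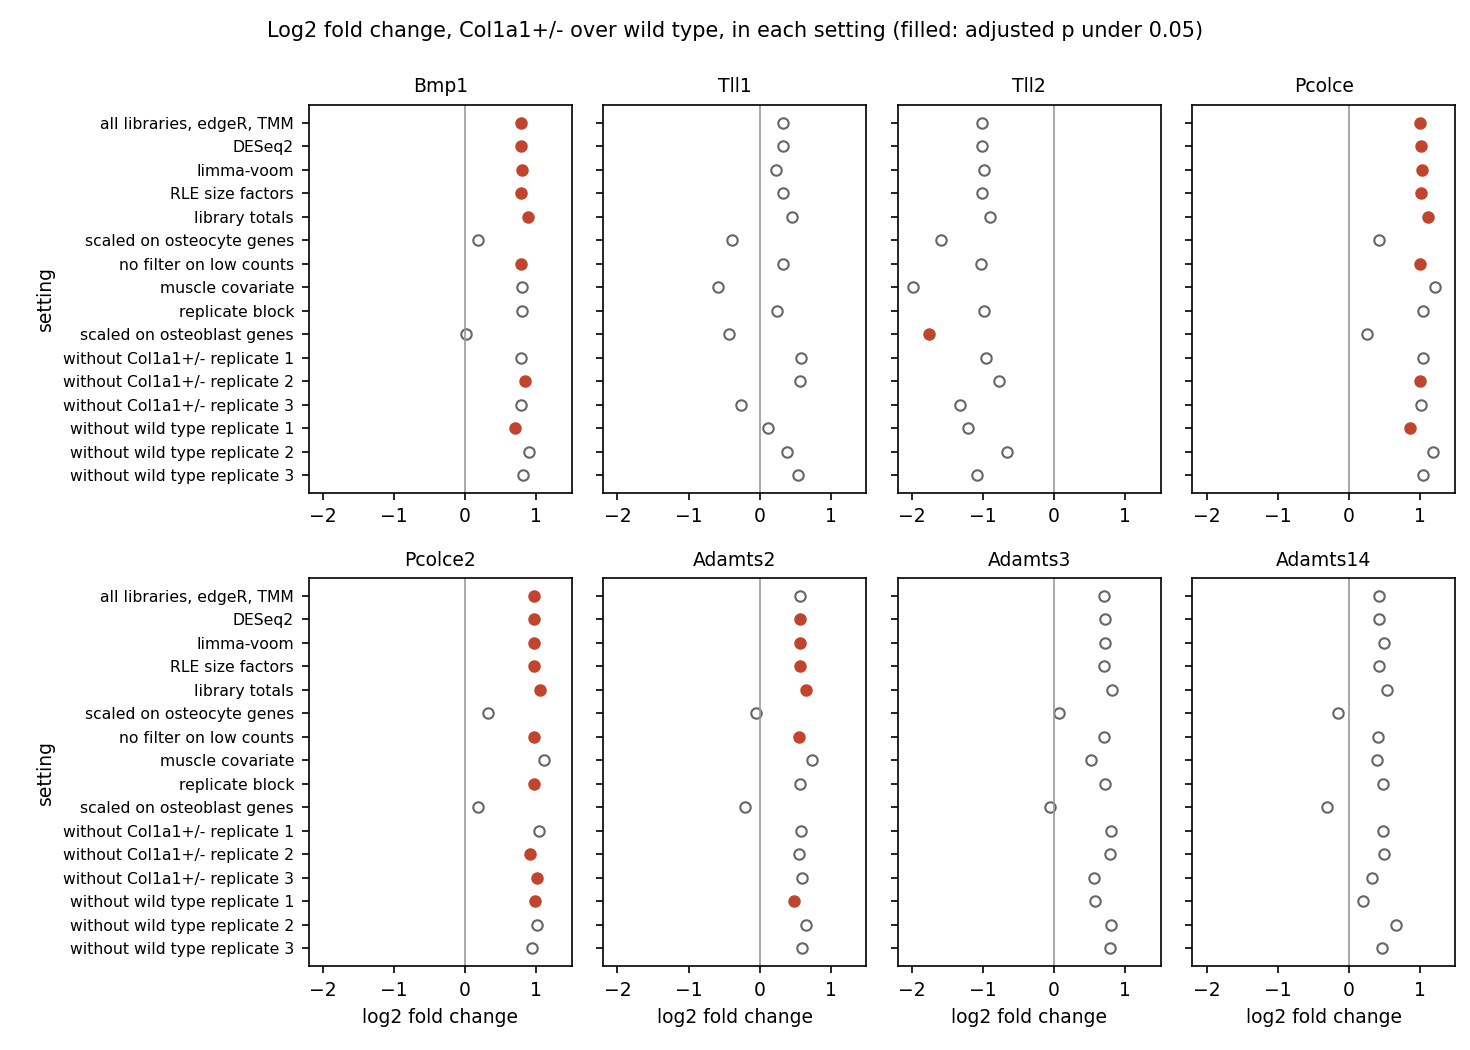
Log2 fold change of each gene with all libraries and under each alternative setting, with filled points where the adjusted p was under 0.05. Bmp1, Pcolce and Pcolce2 stay above 0 in every setting shown, down to 0.02, 0.26 and 0.18 with libraries scaled on osteoblast genes, whereas Tll1, Adamts2, Adamts3 and Adamts14 fall below 0 in at least 1, and Tll2 is below 0 throughout.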

How the data were processed

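Gene counts of 6 tibia libraries were used as the authors deposited them, as raw read counts per gene without normalization. They were made with featureCounts 2.0.3 over exons of Ensembl release 107 on GRCm39, per the file headers, after Trimmomatic 0.39, HISAT2 2.2.1 and SAMtools 1.20, per the submitters' processing notes. The recorded command counts each mate of a pair, sets no strand and leaves out reads that overlap several genes. Symbols came from GENCODE M21 by gene identifier (52073 of 56748 matched).

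Genes were filtered with filterByExpr (99.87% to 99.90% of reads kept) and scaled by TMM (factors 0.892 to 1.10). Genotypes were compared over 18514 genes with edgeR 4.0.16 (R 4.3.3; quasi-likelihood F test, robust, two-sided, Benjamini-Hochberg threshold 0.05), after tests on simulated data. Alternatives used DESeq2 1.42.0, limma-voom (limma 3.58.1), other scalings, no filter, a muscle covariate, a replicate block and 1 library left out. The genes and lists were chosen with earlier results of these data known. From each list of substrates and regulators, the genes of smallest p in each direction were named, up to 2, and others after their values were seen. Likeness was the Pearson r of log2 CPM (prior count 2), with 3 genes named for each gene of at least 1 CPM.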

Additional observations from a re-analysis of the deposited data

How the results depend on the processing

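The number of the 8 genes called higher was 3 by edgeR with all libraries and TMM, and 4 by DESeq2, limma-voom, RLE size factors, library totals and without a filter, where Adamts2 joined. It was 0 with libraries scaled on osteocyte genes, 0 on osteoblast genes (a scaling added after the data were seen, which called 1 gene lower, Tll2) and 0 with the muscle covariate, and it ranged from 0 to 4 with 1 library left out. On the osteocyte scale the median of all genes was -0.67, that of the 8 was 0.01 (-0.81 and -0.14 on the osteoblast scale), and 2 of all genes were called higher and 1461 lower, against 265 and 538. The labels do not say whether shared replicate numbers pair the libraries. Deviations of same-numbered libraries correlated at 0.107, 0.0413 and -0.122, and those of unlike-numbered libraries at -0.198 to 0.194. With so few libraries these values cannot decide whether the numbers mark pairs. With the replicate block 1 of the 8 was called higher (Pcolce2), with 37 of all genes higher and 89 lower. Over all genes DESeq2 called 782 higher and 1466 lower, library totals 588 and 739, the fit without a filter 577 and 895 and osteoblast scaling 20 and 11899. With 1 library left out these counts ran from 0 and 0 (without Col1a1+/- replicate 1 or wild-type replicate 3) to 594 and 1172 (without wild-type replicate 1).

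The log2 fold change turned in sign for Tll1 with libraries scaled on osteocyte genes (-0.38) or osteoblast genes (-0.42), with the muscle covariate (-0.59) and without Col1a1+/- replicate 3, where Tll1 ranged from -0.26 to 0.58 over the libraries left out. It also turned for Adamts2 (-0.048 and -0.21) and Adamts14 (-0.14 and -0.31) on the osteocyte and osteoblast scales and for Adamts3 on the osteoblast scale (-0.060), all of them above the median of all genes on that scale. Of the 17 ratios, 5 turned when 1 library was left out: Bmp1 to Col1a2 (log2 difference -0.14 to 0.035), Pcolce2 to Col1a2 (-0.025 to 0.32), Pcolce2 to Pcolce (-0.19 to 0.12), Adamts3 to Adamts2 (-0.024 to 0.23) and Adamts14 to Adamts2 (-0.28 to 0.051). The cause was not tested. Tll1 and Tll2 rest on 12 to 81 reads per library.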
